A study of Mus musculus with 8 samples.

Results

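Timing transition bins are the stretches of a chromosome whose replication falls between early and late S phase. Here they are the 5 kb bins of mouse chromosome 4 whose mean timing score over 4 profiles lay from -0.5 to 0.5, and 2182 of 30659 bins with a score in every profile met that rule, or 7.12% of the bins and 10.9 Mb. The members were chosen by the mean of the 4 scores, so their level near 0 is a description, and the bins nearest the limits had means of -0.49957 and 0.49968 just inside and of -0.50068 and 0.50040 just outside. The scores come from Repli-seq of mouse embryonic stem cells, in which cells take up BrdU for 2 h, are sorted into an early and a late S-phase fraction of 40000 cells each, and the labelled DNA of each fraction is sequenced. The control group is the JM8N4 line, and the other group carries a Klf4 enhancer deletion, named Klf4.del in the column names. The labels used here give neither the coordinates nor the number of alleles or clones of that deletion, and no further treatment separates the groups. Each group has 2 profiles, called control 1 and 2 and deletion 1 and 2, and each profile was made from 1 early and 1 late library. Values of a group are given in the order of its profiles 1 and 2. The labels do not tie the 2 profiles of a group to separate cultures or clones, and their spread may be technical. The table holds scores and no read counts, so the depth behind a score is unknown.

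A chromosome is copied from many origins, and neighbouring origins that fire at a similar time form domains of early or late replication. Between an early and a late domain lies a timing transition region, where the time of copying changes steadily along the DNA, and a stretch of intermediate timing can also be a shallow hill inside a late domain or a shallow valley inside an early one. Early domains are typically gene-rich and hold active genes, late domains are gene-poor, and long genes for neuronal and adhesion proteins are often late in embryonic stem cells. Klf4, whose enhancer was deleted, encodes a transcription factor of naive pluripotency. Higher scores are read as earlier replication because of where genes lie: bins of the early plateau, with a mean of 2 or more, held 15.5 protein-coding gene starts per Mb and bins of the late plateau, with a mean of -2 or less, held 1.49 per Mb. Transition bins held 3.94 starts per Mb, between the plateaus and close to the 4.44 per Mb of the flank bins, which make up the remaining score range on both sides.

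The DNA at gene starts in transition bins ranged from CpG-rich to nearly free of CpG. The following 5 sequences are the 250 bases before a RefSeq transcript start on GRCm38.p6, the mm10 build, read 5′ to 3′ on the gene's strand, with every CG dinucleotide in capitals. They were picked, after their values were seen, for the runs of bins that the results turn on: a border that lay farther out in deletion cells (Hivep3), one of the steepest borders (Mup7), one of the shallowest borders (Cachd1), the longest dip in an early domain (Zfp618) and a long peak in a late domain (Mms22l).
Hivep3, chr4:119814428-119814677, plus strand: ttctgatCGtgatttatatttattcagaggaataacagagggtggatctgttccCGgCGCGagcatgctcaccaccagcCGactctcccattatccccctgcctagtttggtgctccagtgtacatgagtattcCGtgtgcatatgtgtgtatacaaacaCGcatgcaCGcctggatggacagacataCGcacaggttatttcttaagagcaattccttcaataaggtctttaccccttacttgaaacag
Mup7, chr4:60070476-60070725, minus strand: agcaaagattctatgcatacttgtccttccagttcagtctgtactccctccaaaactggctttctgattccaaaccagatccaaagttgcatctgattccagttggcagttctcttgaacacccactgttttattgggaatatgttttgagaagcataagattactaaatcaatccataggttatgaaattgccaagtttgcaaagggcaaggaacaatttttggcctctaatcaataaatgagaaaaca
Cachd1, chr4:100776429-100776678, plus strand: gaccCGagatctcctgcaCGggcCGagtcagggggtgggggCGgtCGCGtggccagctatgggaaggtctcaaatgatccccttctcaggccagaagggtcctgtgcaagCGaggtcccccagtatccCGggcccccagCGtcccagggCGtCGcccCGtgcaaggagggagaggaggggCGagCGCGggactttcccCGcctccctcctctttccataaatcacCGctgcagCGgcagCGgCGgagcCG
Zfp618, chr4:62965317-62965566, plus strand: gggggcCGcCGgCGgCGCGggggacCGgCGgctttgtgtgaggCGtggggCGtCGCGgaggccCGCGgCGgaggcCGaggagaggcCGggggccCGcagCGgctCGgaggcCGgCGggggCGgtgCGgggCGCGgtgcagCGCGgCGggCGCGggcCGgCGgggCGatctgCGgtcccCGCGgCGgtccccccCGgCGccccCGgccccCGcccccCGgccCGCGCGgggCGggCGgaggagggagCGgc
Mms22l, chr4:24496201-24496450, plus strand: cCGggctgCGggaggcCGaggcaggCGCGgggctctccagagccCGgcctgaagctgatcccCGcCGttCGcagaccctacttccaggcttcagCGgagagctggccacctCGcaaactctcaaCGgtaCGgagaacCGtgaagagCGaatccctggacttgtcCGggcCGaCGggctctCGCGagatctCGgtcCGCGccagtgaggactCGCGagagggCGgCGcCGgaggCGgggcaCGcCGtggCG
The Zfp618 sequence holds 48 CG dinucleotides, the Mms22l sequence 32, the Cachd1 sequence 21, the Hivep3 sequence 9 and the Mup7 sequence 0. The Hivep3 start of that table lies inside the gene body, which begins farther upstream at an early score. CG reads the same on both strands, so both were covered. Over the full 300 bases of the table, from 250 before to 50 after the start, the 44 transcript starts in transition bins had a median of 3 CG dinucleotides and a GC content of 50.7%, against 18 and 60% for the 744 starts in the early plateau and 2 and 46% for the 72 in the late plateau. At least 10 CG dinucleotides were present in 36.4% of the starts in transition bins, 70.0% in the early plateau, 15.3% in the late plateau and 61.2% of all 1067 starts. These shares describe the sequence around the starts and were not tested.

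Of 56 miRNA genes of the chromosome, 4 overlapped a transition bin (Mir3471-2, Mir455, Mir31 and Mir6402). The mature strands of the pair that lay in the longest dip and in the longest border run are shown, from RefSeq on GRCm38.p6, with the seed (bases 2 to 8) in capitals.
mmu-miR-455-5p: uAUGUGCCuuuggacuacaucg
mmu-miR-455-3p: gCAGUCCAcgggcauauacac
mmu-miR-31-5p: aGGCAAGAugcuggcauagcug
mmu-miR-31-3p: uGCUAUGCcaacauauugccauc
These 4 strands share no seed. The bin of Mir455 scored 0.14 and 0.16 in the controls against -0.34 and -0.46 in the deletion profiles. The bin of Mir31 scored -0.12 and 0.62 in the controls against 0.59 and 0.60 in the deletion profiles. The groups did not overlap at Mir455 and overlapped at Mir31.

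The 2182 bins fell into 87 unbroken runs of 3 kinds. A border, with an early domain on one side and a late domain on the other, accounted for 67 runs and 1507 bins, 69.1% of the members. Read along increasing coordinates, 34 borders went from late to early and 33 from early to late. Another 13 runs, with 423 bins, were peaks, where a late domain rose past -0.5 and fell back. The last 7 runs, with 252 bins, were dips, where an early domain sank past 0.5 and rose again. Some barely passed these limits: the peak at chr4:23600000-23619999 had a highest mean of -0.491 and the dip at chr4:94510000-94554999 a lowest mean of 0.455. Runs had a median length of 95 kb, from 20 to 610 kb. Borders had a median of 95 kb, with the middle 50% of them between 70 and 115 kb, while peaks had a median of 135 kb and dips one of 125 kb. At 25 borders the mean profile passed all the way from -2 to 2, over a median of 385 kb and from 225 to 1145 kb. The borders enclosed 33 early domains with a median length of 1092 kb and a median of 12 protein-coding genes, and 33 late domains with 1212 kb and 5 genes.

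**Figure D1:**
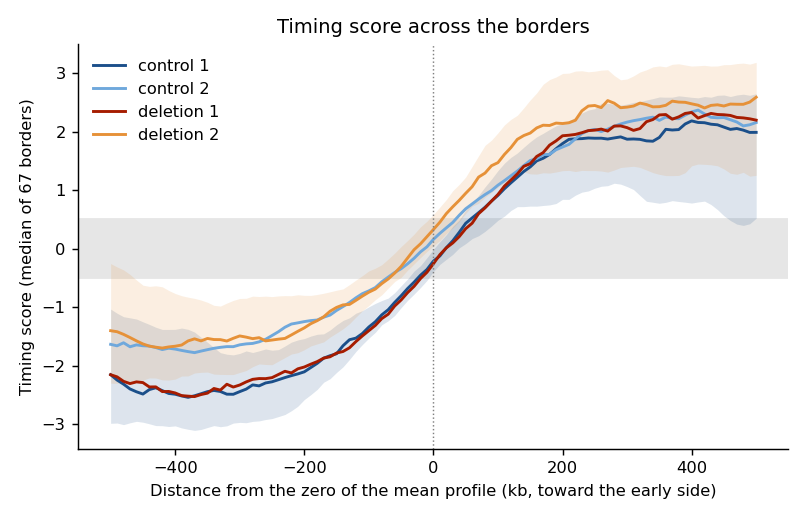
Median timing score of 67 borders (vertical axis, no unit) against the distance from the zero of the mean profile in kb, turned so that the early side is on the right, for each of the 4 profiles. Grey marks the scores from -0.5 to 0.5, and the bands span the quartiles of control 1 and deletion 2. At the zero of the mean, the medians were -0.21 and 0.16 in the controls against -0.26 and 0.33 in the deletion profiles.

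Slopes were measured per bin over 10 kb and are given as the median absolute change in score per 100 kb. In transition bins this was 0.714 in control 1, 0.546 in control 2, 0.748 in deletion 1 and 0.727 in deletion 2. Early plateau bins had 0.358, 0.352, 0.353 and 0.438 in the same order, and late plateau bins 0.364, 0.293, 0.287 and 0.312. In every profile the transition bins were therefore steeper than the plateaus, by 1.55 to 2.12 times over the early and by 1.87 to 2.60 times over the late plateau. Over the flank bins they were steeper by 1.15 to 1.42 times. Bins with a mean from 0.5 to 1 had 0.706, 0.540, 0.777 and 0.759, about as steep as the transition bins. Those from -1 to -0.5 had 0.569, 0.438, 0.740 and 0.485. Steepness was thus not particular to the window. The kinds of run differed more than the classes did. Bins of borders had 0.913, 0.758, 1.03 and 0.931, whereas bins of peaks had 0.348, 0.222, 0.345 and 0.247 and bins of dips 0.312, 0.271, 0.399 and 0.259. Peaks and dips thus lay near the plateau slopes, and borders lay above in all 4 profiles. The kinds were set by the levels on either side of a run, so these values are a description with no test.

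**Figure D2:**
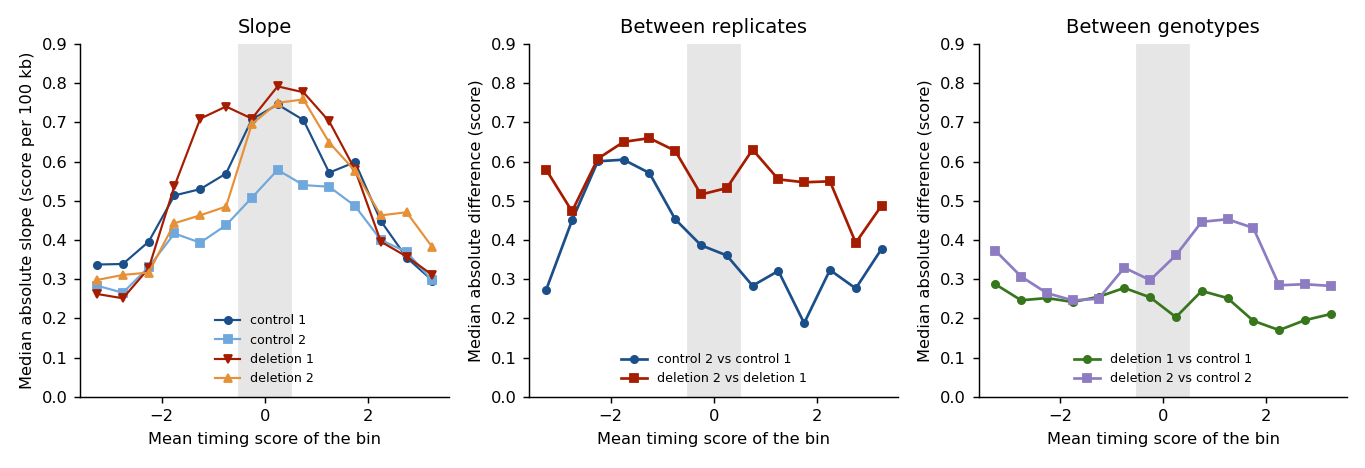
Median absolute slope (left, score per 100 kb), median absolute difference between the replicates of a group (middle, score) and median absolute difference between genotypes within a replicate number (right, score), against the mean timing score of the bin in steps of 0.5, with transition bins in grey. In control 1 the slope was 0.746 just above 0 and 0.339 at a mean score of -2.75, while the difference between the control profiles was 0.361 and 0.450 at the same levels.

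In the scores as deposited the spread between replicates was not highest in the transition bins. The median absolute difference between the control profiles was 0.371 there, against 0.319 in the early plateau and 0.505 in the late plateau. Between the deletion profiles it was 0.520, against 0.453 in the early and 0.540 in the late plateau. Flank bins had 0.440 in control and 0.609 in deletion cells. Transition bins thus exceeded the early plateau by 1.16 times in control and 1.15 times in deletion cells, and they were at 0.734 and 0.962 times the late plateau. After each profile was centred on its median the ratios to the early plateau were 1.08 and 1.80, and those to the late plateau 0.529 and 1.07, so the deletion ratios moved by over 1.5 times or past 1 with the scaling. The deletion profiles then differed most in transition bins, by 0.479 against 0.265 in the early plateau, 0.448 in the late plateau and 0.400 in the flank. After quantile normalization the late plateau was again higher, at 0.494 against 0.472. The replicates also differed in one direction: control 2 and deletion 2 lay above control 1 and deletion 1 by a median of 0.35 and 0.47 in transition bins. Of the members, 593 (27.2%) scored from -0.5 to 0.5 in all 4 profiles, and 305 scored above 0 in all 4 and 401 in none.

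The genotype difference was measured apart from the mean that chose the bins. Its median absolute size, between the means of 2 profiles, was 0.241 in transition bins, 0.193 in the early plateau, 0.231 in the late plateau and 0.258 in the flank bins. That is 1.25 times the early and 1.05 times the late plateau. Between single profiles it was 0.226 in number 1 and 0.320 in number 2, against replicate differences of 0.371 in control and 0.520 in deletion cells. After median centring the genotype values were 0.225 and 0.327 and the replicate values 0.233 and 0.479, so the gap to the control replicates closed or turned. A difference of over 0.5 was found in 10.3% of transition bins, 7.13% of early and 13.2% of late plateau bins. With direction, the deletion profiles lay higher by a median of 0.09 in transition bins, 0.15 in the early and 0.19 in the late plateau. After median centring the value in transition bins turned to -0.025, and without deletion replicate 2 it was -0.17, so the direction depends on the scaling and on single profiles.

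No transition bin passed the test of genotype (limma on all 30659 bins, Benjamini-Hochberg adjusted p under 0.05, 0% called over all bins), and 31 members, 1.42%, had an unadjusted p under 0.05 against 0.975% of all bins. In 133 members, or 6.10%, both deletion scores exceeded both control scores, against 16% of all bins. They lay below both controls in 305 members, or 13.98%, against 5.86% of all bins. After median centring these shares were 13.8% above, against 17.4% of all bins, and 14.8% below, against 12.1% of all bins, so the gap to all bins was smaller under that scaling. Neighbouring bins share smoothed scores, so these counts are not counts of independent places.

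Over profiles, the distance of the members from the plateaus gave 1 value each. The mean score of transition bins minus that of the early plateau was -2.79 and -2.73 in the controls against -2.88 and -2.82 in the deletion profiles. Both deletion values were below both control values (difference -0.09, exact two-sided permutation p = 0.333, the smallest p that 2 profiles against 2 allow). After quantile normalization they overlapped (difference -0.0205, exact two-sided permutation p = 0.667). Against the late plateau the values were 2.48 and 2.68 in the controls against 2.36 and 2.56 in the deletion profiles, which overlap (difference -0.12, exact two-sided permutation p = 0.667). After quantile normalization that difference was -0.0476 and the groups did not overlap (exact two-sided permutation p = 0.333). Against the mean of both plateaus the values were -0.155 and -0.0298 in the controls against -0.260 and -0.132 in the deletion profiles. These overlap (difference -0.104, exact two-sided permutation p = 0.667), and after quantile normalization they did not (difference -0.0341, exact two-sided permutation p = 0.333). The share of bins that scored from -0.5 to 0.5 in the profile itself was 7.19% and 8.61% in the controls against 6.72% and 9.21% in the deletion profiles, with a difference of 0.0669 percentage points that was smaller than the difference within either group (exact two-sided permutation p = 1). That share needs no choice by the mean of the profiles.

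The 87 runs were then compared as units, each by its mean score, in a fit over 381 runs of all classes. None of the 87 passed (limma, adjusted p of at least 0.995, 0% called over all runs), and 2 of 87 had an unadjusted p under 0.05, against 5 of 381. In 8 of the 87 both deletion scores exceeded both control scores, against 12.3% of all runs, and in 12 both fell short of them, against 8.14% of all runs. Of the 8, 4 were peaks whose control means lay below the window, so they met the rule through the deletion scores. The median difference over the 87 was 0.11 with 55 runs positive, and it was -0.16 without deletion replicate 2. The lowest difference was that of the border beside Klf4, at chr4:55660000-55719999, where the run scored 0.20 and 1.16 in the controls against -1.20 and -0.24 in the deletion profiles. It was -1.40 (SE 0.48). With the replicate number as a block, which the labels do not give as pairs, this run passed (limma, adjusted p = 0.0317, 2 of all 381 runs called). Without deletion replicate 2 the difference was -1.88. In that fit the deletion group is 1 profile, assumed to vary like the 2 controls, which alone give the spread.

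**Figure D3:**
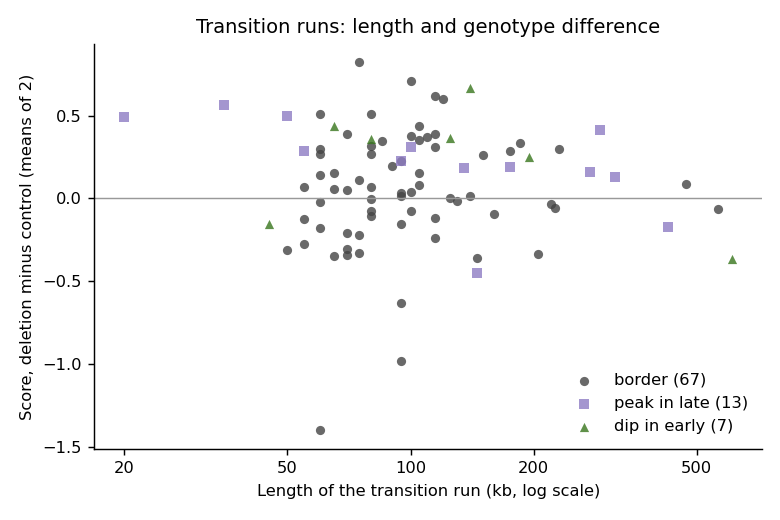
Difference in mean score, deletion minus control (vertical axis, means of 2 profiles), against the length of each of 87 transition runs in kb on a log scale, by kind of run. The border at the bottom, with -1.40, is the one beside Klf4, and the longest run is a dip of 610 kb with -0.36.

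Steepness varied widely from border to border. The slope across a border had a median of 1.11 per 100 kb over the mean of the 4 profiles, from -0.002 to 1.96. The steepest was at chr4:152655000-152704999, a 50 kb run 116 kb from Nphp4, a gene for a protein of the ciliary transition zone. Its slopes were 2.20 and 1.59 in the controls against 1.83 and 2.21 in the deletion profiles. The next, at chr4:60045000-60099999, had its zero inside Mup7, a major urinary protein gene, with slopes of 1.85, 1.99, 1.87 and 1.65 in the same order. The border 173 kb from Prdm13, which encodes a transcription factor of neural development, had 1.47, 1.79, 2.33 and 1.56. The fourth, 22.5 kb from Gm12888 and 67.3 kb from Gm12886, had 1.73, 1.58, 1.83 and 1.81. The groups overlapped at the first 3, and at the fourth both deletion profiles were steeper than both controls, by 0.17 (SE 0.25).

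The shallowest borders were 220 to 565 kb long. At chr4:88905000-89469999, over 565 kb, the slopes fitted across the whole run were -0.08, 0.01, -0.02 and 0.08. Within the run the mean score moved between -0.50 and 0.49. It passed 0 from early to late at 2 places, with a return above 0 between them. A slope near 0 there thus does not stand for a level profile. That run covers Mtap, a gene of methionine salvage, and Cdkn2a and Cdkn2b, which encode inhibitors of cell cycle kinases, and the zero of its mean lay 29.6 kb from Cdkn2b and 348 kb from Dmrta1. Cdkn2a scored 0.24, 0.17, 0.25 and 0.20 in control 1 and 2 and deletion 1 and 2, and Cdkn2b 0.26, 0.11, 0.10 and 0.11. At chr4:100565000-101034999, over 470 kb, the slopes were 0.16, 0.06, 0.07 and 0.18, with Ube2u, a gene of the ubiquitin-conjugating enzyme family, 146 kb below the zero and Cachd1, which encodes a protein with calcium channel domains, 80.85 kb above it. The border between Nfia, a gene for a nuclear factor I protein, and Tm2d1 had slopes of 0.22, 0.23, 0.27 and 0.60, and the one between Rngtt, which encodes the mRNA capping enzyme, and Cnr1, which encodes a cannabinoid receptor, had 0.43, 0.40, 0.08 and 0.43.

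**Figure D4:**
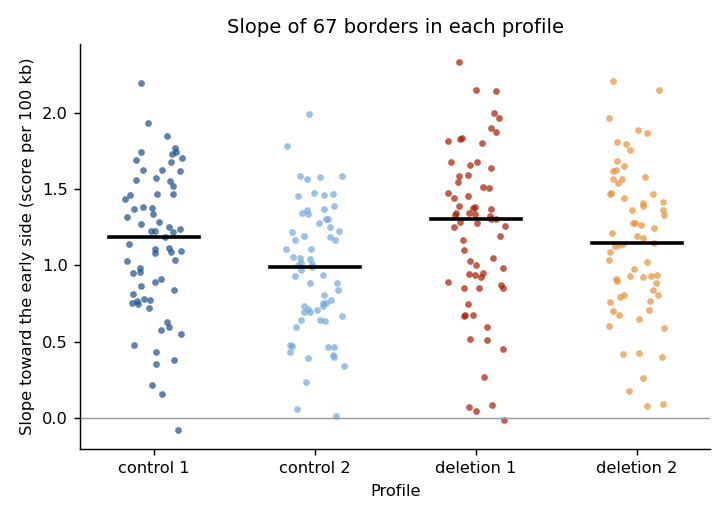
Slope across each of 67 borders in score per 100 kb (vertical axis), turned so that a rise toward the early side is positive, in each of the 4 profiles, with 1 point per border and a bar at the median. The medians were 1.19 and 0.989 in the controls against 1.30 and 1.15 in the deletion profiles, and the ranges overlap almost wholly.

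The median slope of the 67 borders was 1.19 and 0.989 in the controls against 1.30 and 1.15 in the deletion profiles, which overlap between the groups (difference 0.136, exact two-sided permutation p = 0.667). Border by border the deletion profiles were steeper by a median of 0.12, which was 0.0459 without control replicate 2, 0.201 without control replicate 1 and 0.0588 after quantile normalization. Within number 1 the deletion profile was steeper at 41 borders and within number 2 at 49 of 67. No border passed the test (limma over 67 borders, 0% called), and 8 had an unadjusted p under 0.05. Both deletion profiles were steeper than both controls at 23 borders (34.3%) and shallower at 2 (2.99%). All borders are members, so these shares are also their own background. After quantile normalization the counts were 15 and 7, and 1 border then passed as shallower in deletion cells. Median centring leaves slopes as they are.

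Border positions were read as the place, relative to the zero of the mean profile, at which each profile passed 0, in kb and with positive values where the early domain was larger. At 66 of 67 borders every profile had such a place within 250 kb, and the border beside Cachd1 was left out because control 1 had none. In the scores as deposited, positions differed more between replicates than between genotypes. Control 2 lay outward of control 1 at 60 of 66 borders, by a median of 35.1 kb, and deletion 2 lay outward of deletion 1 at 60 of 67, by a median of 53.2 kb. The median shift between genotypes, as means of 2 profiles, was 6.07 kb, with 40 borders outward and 26 inward, and its median absolute size was 19.0 kb. Between single profiles that size was 18.2 kb in number 1 and 29.2 kb in number 2. Between replicates it was 38.0 kb in control and 56.2 kb in deletion cells. Median centring took the replicate shifts to -3.45 and 9.27 kb and the genotype shift to -4.05 kb, so the shift between control profiles and that between genotypes turned in direction. The median absolute sizes were then 18.8 and 33.8 kb between replicates and 20.9 kb between the genotype means. Between single profiles of the 2 genotypes they were 19.0 kb in number 1 and 29.7 kb in number 2. In the scores as deposited none of the 66 borders passed the test (limma, adjusted p of at least 0.969, 0% called), and 0 had an unadjusted p under 0.05. After median centring 0 of 65 passed, but 7 had an unadjusted p under 0.05, and the lowest adjusted p was 0.0864 (limma). Quantile normalization gave 0 of 66 passing, 7 with an unadjusted p under 0.05 and a lowest adjusted p of 0.293 (limma). With each profile's own median as the border level these were 0 of 65, 4 and 0.176 (limma). As deposited, the groups did not overlap at 14 borders. Both deletion profiles lay outward of both controls at 4 borders (6.06%) and inward at 10 (15.2%). After median centring both counts were 12 of 65, so the inward excess was not found under that scaling.

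**Figure D5:**
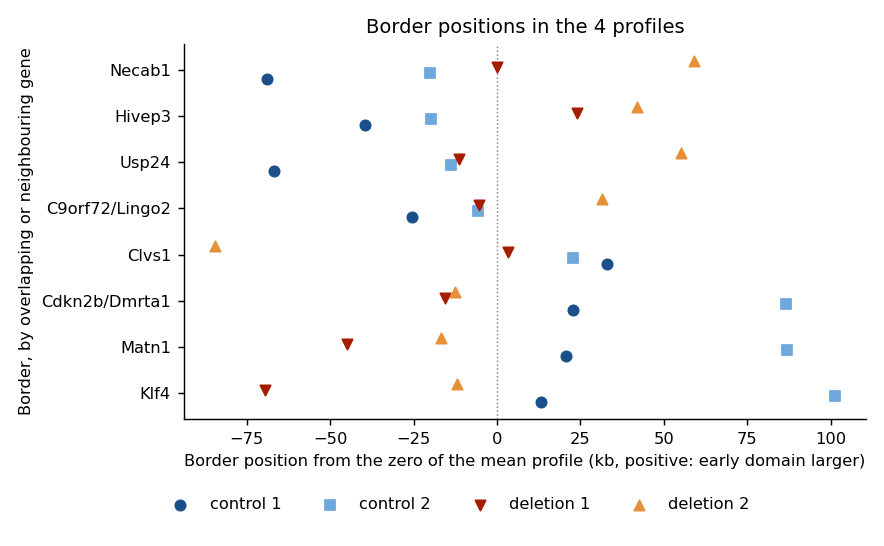
Position of 8 borders in kb from the zero of the mean profile (horizontal axis, positive where the early domain is larger) in each of the 4 profiles, labelled by the gene that overlaps or neighbours the zero. The 4 borders at the top have both deletion profiles to the right of both controls, and the 4 at the bottom have both to the left.

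Among the 4 borders that lay farther out in deletion cells with groups that did not overlap, the one inside Necab1, which encodes a neuronal calcium-binding protein, had the largest shift. Its positions were -69.0 and -20.1 kb in the controls against 0.06 and 59.0 kb in the deletion profiles, a difference of 74.1 kb (SE 34.2). It was 44.6 kb without deletion replicate 2 and 49.6 kb without control replicate 1. Hivep3, a gene for a large zinc finger protein, holds 2 borders. The one at chr4:119770000-119869999 lay at -39.4 and -19.7 kb in the controls against 23.9 and 42.1 kb in the deletion profiles. Its difference of 62.5 kb (SE 22.7) was 63.3 kb in number 1 and 61.8 kb in number 2, and the replicates of a group were 19.7 and 18.2 kb apart. It was the border of these 8 with the closest replicates beside its shift, and it still did not pass (limma, adjusted p = 0.969). At the other Hivep3 border, chr4:120010000-120089999, the run scored -0.10 and 0.09 in the controls against -0.07 and 0.05 in the deletion profiles. The groups overlapped there, with a difference in score of -0.004. The border 189.7 kb from Usp24, which encodes a deubiquitinase, lay at -66.9 and -13.7 kb in the controls against -11.4 and 55.1 kb in the deletion profiles, a difference of 62.2 kb (SE 36.7). It was 28.9 kb without deletion replicate 2, 35.6 kb without control replicate 1 and 95.4 kb without deletion replicate 1. Deletion 1 and control 2 nearly coincided there. The border between C9orf72 and Lingo2 lay at -25.5 and -5.66 kb in the controls against -5.31 and 31.6 kb in the deletion profiles, with a difference of 28.7 kb (SE 25.5). It was 10.3 kb without deletion replicate 2, 18.8 kb without control replicate 1 and 47.2 kb without deletion replicate 1. In the last case the nearest values of the 2 groups all but touched.

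The largest inward shift, also among groups that did not overlap, was on the high-coordinate side of Klf4, 156 kb from the gene. This border lay at 13.2 and 101 kb in the controls against -69.6 and -12.1 kb in the deletion profiles, a difference of -98.2 kb (SE 42.8). It was -54.0 kb without control replicate 2, and it ranged to -142 kb without control replicate 1. It was -82.8 kb in number 1 and -114 kb in number 2, and the replicates were 88.3 and 57.5 kb apart. The border's slopes, at 1.74 and 1.33 in the controls against 1.5 and 1.69 in the deletion profiles, overlapped. The border on the low-coordinate side, 872 kb from Klf4, lay at -38.3 and 11.99 kb in the controls against -44.1 and 89.45 kb in the deletion profiles, which overlap. Its difference was 35.8 kb with all profiles and -31.0 kb without deletion replicate 2.

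The next 3 inward shifts by size, of the 10 borders whose groups did not overlap in that direction, were the following. The border 169 kb from Matn1, which encodes a cartilage matrix protein, lay at 20.7 and 87.1 kb in the controls against -44.9 and -16.8 kb in the deletion profiles (difference -84.8 kb, SE 32.9, and -51.6 kb without control replicate 2). The border inside Clvs1, a gene for a protein of endosomal trafficking in neurons, lay at 33.0 and 22.9 kb in the controls against 3.17 and -84.6 kb in the deletion profiles (difference -68.7 kb, SE 37.6). It was -24.8 kb without deletion replicate 2 and -113 kb without deletion replicate 1, and the groups overlapped after median centring. The border beside Cdkn2b lay at 22.9 and 86.5 kb in the controls against -15.5 and -12.7 kb in the deletion profiles (difference -68.8 kb, SE 30.7). It was -37.0 kb without control replicate 2. The mean profile passes 0 from early to late at 2 places in that run, with a return between them. After median centring at least 1 profile had no zero within reach.

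The peaks, places where a late domain comes up to intermediate timing, overlapped a protein-coding gene in 6 of 13 cases. Among all 87 runs 51 did, and among the 67 borders 39. The runs described from here on were chosen after their values were seen. Mms22l, which encodes a protein of replication fork repair, and Klhl32 shared a peak of 290 kb. It scored -0.82 and 0.07 in the controls against -0.46 and 0.53 in the deletion profiles. Fut9, which encodes a fucosyltransferase of Lewis x synthesis, lay in a peak of 315 kb that scored -0.58 and -0.23 in the controls against -0.79 and 0.23 in the deletion profiles. In both peaks the replicates of either group differed by more than the group means, which differed by 0.41 and 0.13. In number 2 alone the genotypes differed by 0.46 at the Fut9 peak, more than the controls did. The peak over Elavl2, a gene for a neuronal RNA-binding protein, scored -0.28 and -0.56 in the controls against -0.03 and -0.49 in the deletion profiles over 275 kb. The peak at Ajap1, a gene for a junction protein, was the longest, with 425 kb, and scored 0.22 and 0.24 in the controls against 0.21 and -0.10 in the deletion profiles. Ajap1 itself, with 100 kb in transition bins, scored -0.25 and -0.16 in the controls against -0.17 and -0.45 in the deletion profiles, which overlap. The remaining gene-bearing peaks held Tmem67, a gene for a ciliary membrane protein, and Dmac1. At 4 peaks, none of them over a protein-coding gene, both deletion profiles lay above both controls, with differences of 0.31 to 0.56 over 20 to 100 kb, and at the Ajap1 peak both lay below. At the 4 peaks the control means were -0.77, -0.58, -0.73 and -0.74, below the window, and the deletion means -0.21, -0.27, -0.23 and -0.25. They met the rule through the deletion scores, so the direction there was favoured by the choice of bins. The shares over all 381 runs, 12.3% above and 8.14% below, are therefore no fair background for them.

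The dips, where an early domain sinks to intermediate timing, overlapped a protein-coding gene in 6 of 7 cases. The longest transition run of the chromosome was one of them, with 610 kb at chr4:62865000-63474999. It scored 0.27 and 0.16 in the controls against -0.03 and -0.26 in the deletion profiles, with a difference of -0.36 (SE 0.38) and groups that did not overlap. It covers Zfp618, a zinc finger gene, Ambp, which encodes the precursor of alpha-1-microglobulin and bikunin, Kif12, a kinesin gene, Col27a1, a fibrillar collagen gene, the acute-phase genes Orm1, Orm2 and Orm3, Akna and part of Whrn, a gene needed for the stereocilia of hair cells. Within it Col27a1 scored 0.20 and 0.22 in the controls against -0.14 and -0.35 in the deletion profiles, and Akna 0.58 and 0.48 in the controls against 0.26 and 0.08 in the deletion profiles. The dip over Bach2, which encodes a transcription factor of lymphocytes, scored -0.02 and 0.50 in the controls against 0.28 and 1.08 in the deletion profiles. The dip over Cer1, a gene for a secreted antagonist of Nodal and BMP signals, with Zdhhc21 and part of Frem1, scored -0.20 and 0.34 in the controls against -0.23 and 0.87 in the deletion profiles. Those over Cntln, Adamtsl1 and Caap1 and the one with no gene had overlapping groups as well.

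Transition bins overlapped 83 of 1301 measured protein-coding genes, or 6.38%, and 46 of these lay wholly inside transition bins. The share was highest among long genes. Of genes of 100 kb or more 29 of 143 (20.3%) overlapped a transition bin, against 21 of 492 (4.27%) from 20 to 100 kb and 33 of 666 (4.95%) below 20 kb. A longer gene covers more bins and so has more chances to meet one, and this was not corrected for. The median length was 42.8 kb for the 83 and 18.9 kb for all 1301. At 22 of 67 borders the zero of the mean profile lay inside a protein-coding gene, and the 20 genes concerned had a median length of 187 kb. Hivep3 and Camta1 each held a pair of borders.

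The direction of transcription is known for 14 of these 20 genes. In 10 of them the start lay below 0 and the end above it, in 2 the start lay above and the end below, and in 2 both ends lay above. These genes were picked by a zero inside them, so most of them must have 1 end on each side of 0. Which end was the early one was not tested. Of all 1067 genes with a strand and a score at the start, 84.3% started above 0. Those were not picked by a zero, so that share is no fair background. Among genes for signalling at the synapse and membrane, Gabbr2, which encodes a subunit of the GABA-B receptor, went from -0.77 at its start to 2.68 at its end in the mean score, and Slc24a2, a sodium, potassium and calcium exchanger gene, from -0.64 to 2.80. Sgip1, which encodes an endocytic protein, went from -1.81 to 0.81, and Elavl4, a gene for a neuronal RNA-binding protein, from -0.52 to 0.31. Svep1, which encodes an extracellular matrix protein, went from -0.54 to 1.78, and Frmd3 from -1.13 to 0.65. Fyb2, Mup7, Tex48 and 9530002B09Rik made up the rest of the 10. Of these, Mup7 went only from -0.07 to 0.03 and Tex48 from -0.11 to 0.06. The opposite order was found in Sh3gl2, which encodes endophilin A1 of synaptic vesicle recycling, from 0.79 to -0.31, and in Lepr, the leptin receptor gene, from 0.77 to -0.07. The genes with both ends early had a late stretch between their borders: Hivep3 ran from 0.94 to 1.12 with a lowest bin of -0.83, and Camta1, which encodes a calmodulin-binding transcription activator, from 3.42 to 2.00 with a lowest bin of -0.87. No RNA was measured here.

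Genes were not tested one by one, and the median difference, deletion minus control, of the 83 was 0.11, beside 0.14 over all genes. Camta1 scored 0.76 and 0.77 in the controls against 0.72 and 0.74 in the deletion profiles as an average over the gene. Gabbr2 scored 1.01, 0.94, 0.94 and 0.96 in that order. These long genes therefore repeated within narrow limits, as averages over early and late parts. Hivep3 scored -0.37 and -0.11 in the controls against -0.02 and 0.16 in the deletion profiles, and Necab1 -1.21 and -0.72 in the controls against -1.17 and -0.05 in the deletion profiles. The groups did not overlap at Hivep3 and overlapped at Necab1, taken over the whole gene. Elavl4 scored -0.20 and 0.14 in the controls against -0.39 and -0.42 in the deletion profiles, which did not overlap. Lepr scored -0.20 and 0.16 in the controls against -0.43 and 1.21 in the deletion profiles, where the deletion replicates lay on either side of both controls.

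The gene lists used differed in their share of members. None of 11 pluripotency genes and none of 28 housekeeping genes overlapped a transition bin, and 10 of the 11 and all 28 were early in all 4 profiles. Over all genes the share was 6.38%, which lists this short can miss, and no list was tested. Among 50 developmental regulators 5 did (10%): Camta1, Hivep3, Elavl2, Bach2 and Ror1. Ror1, a receptor of Wnt5a, had its start at a border and lay at -1.5 and -0.75 in the controls against -1.93 and -1.11 in the deletion profiles over the gene. Among 42 long neuronal and adhesion genes 11 did (26.2%), against 6.38% of all genes. The median length of that list was 201 kb, against 62.9 kb for the developmental regulators and 18.9 kb over all genes. Of all genes of 100 kb or more, 20.3% overlapped a transition bin, which is the nearer background for this list. The 2 lists are not separate, since Camta1, Hivep3, Elavl2 and Ror1 stand in both. Those with the longest overlap were Adamtsl1, which encodes an extracellular matrix protein, with 310 kb in transition bins, Cachd1 with 230 kb, Camta1 with 195 kb, Fut9 with 190 kb, Hivep3 with 180 kb and Elavl2 with 170 kb. Adamtsl1 held both a border and a dip and scored -0.61 and 0.24 in the controls against -0.31 and 0.59 in the deletion profiles. Cachd1 scored -0.22 and 0.08 in the controls against -0.08 and 0.16 in the deletion profiles. The groups overlapped at both.

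Tandem gene families formed several of the short-gene borders. At chr4:88555000-88644999, interferon alpha genes lay one after the other on the way from late to early: in the mean score Ifna15 was at -0.49, Ifna14 at -0.28, Ifna9 at -0.05, Ifna12 at 0.07 and Ifna13 at 0.48. Ifna9 scored -0.43 and 0.14 in the controls against -0.02 and 0.13 in the deletion profiles, which overlap. Of the Cyp4a genes for fatty acid hydroxylases, Cyp4a10 was at -0.31, Cyp4a31 at 0.14 and Cyp4a32 at 0.50 across another border. Mup7 scored -0.10 and -0.01 in the controls against -0.07 and 0.12 in the deletion profiles, and Mup3 -0.16 and 0.16 in the controls against -0.04 and 0.69 in the deletion profiles. Genes of such families are near-identical copies, and the sources used here do not give the treatment of reads that match several copies. These scores are therefore less certain than those over unique sequence.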

How the data were processed

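Repli-seq timing scores of chromosome 4 were analysed for 2 control and 2 Klf4 enhancer deletion profiles, each from 1 early and 1 late library. The authors deposited scores that, per the file name, had been normalized by the interquartile range. The sources used here give neither log base nor smoothing nor the treatment of reads that match several places. The submitters' processing notes list the tools Bowtie2, SAMtools and bedtools without versions, and the build mm10. A position was taken as the start of its 5 kb bin. Of 31301 positions, 639 had no score in any profile and 3 none in the deletion profiles, and all were left out. The plan had allowed for log ratios, and the planned tests were applied to the deposited scores.

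Runs, borders, slopes and positions of zeros were computed in Python 3.11.15 with numpy 2.4.6 and pandas 2.3.3. The genotype tests used limma 3.58.1 (moderated by eBayes, R 4.3.3, two-sided, Benjamini-Hochberg, threshold 0.05) over all bins, runs or borders, and single values by exact permutation over the 4 profiles. The SEs rest on a spread pooled over features, wholly so for border slopes. The fits were also run on simulated data with independent noise for each feature. Neighbouring bins share smoothed scores, so the simulation does not show how the fits behave on these data. Genes, strands and promoters came from RefSeq tables of GRCm38.p6, with 1301 of 1328 protein-coding genes over a scored bin and a strand for 1067 of them.

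The members, gene lists and tests were chosen with earlier results of these data known. Borders named are the 4 steepest, the 4 shallowest, the 4 with the largest shift in each direction among those whose groups did not overlap, and the nearest on each side of Klf4, with the gene over the zero or else the nearest within 500 kb. Up to 6 members per list, those with the longest overlap, are also named. Alternatives were other windows and plateau limits, median centring, quantile normalization, each profile's own median as the border level, bins read by their end, members chosen in one replicate number and measured in the other, limma's trend and robust options, runs of at least 4 bins, a block for the replicate number and the omission of each profile in turn.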

Additional observations from a re-analysis of the deposited data

How the results depend on the processing

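The count of 67 borders stayed within 1.5 times, and the slopes of transition bins and their ratios to both plateaus within the spread of profiles, under every alternative run for them. The median slope difference of borders stayed positive but ranged from 0.0459 to 0.201 with each profile left out in turn. A window from -0.25 to 0.25 gave 1001 transition bins and one from -1 to 1 gave 4859, with 171 genes. The mean ratio of replicate spread to the early plateau, 1.15 as reported, was 1.17 and 1.18 with plateaus from 1.5 and from 2.5, 1.18 and 1.27 with the narrow and wide window, 1.44 after median centring and 1.59 after quantile normalization. The genotype difference over the early plateau was 1.2 with plateaus from 1.5, 1.36 with the wide window, 1.35 after median centring and 1.36 after quantile normalization. With members from number 1 measured in number 2 it was 1.33 over the early and 1.27 over the late plateau, at a median absolute difference of 0.372, and the reverse choice gave 1.30 over the early plateau. Over the late plateau it was 1.19 after quantile normalization.

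With each profile left out in turn, the median absolute genotype difference ranged from 0.176 to 0.451, its ratio to the early plateau from 0.939 to 1.27 and to the late plateau from 0.601 to 1.15. The median signed difference ranged from -0.17 to 0.30 over bins and from -0.16 to 0.45 over runs, the median border shift from -18.8 to 26.9 kb, the low-side Klf4 border from -31.0 to 103 kb, and the difference in the share of bins near 0 from -1.18 to 1.31 percentage points. Such comparisons mix genotype with replicate number. Calls ranged from 0 to 12 bins and from 0 to 1 run, and the 12 bins and the run lay at the border beside Klf4, without deletion replicate 2, in a fit whose spread comes from the 2 controls alone. After median centring the median difference was -0.025 over bins and -0.000668 over runs, the border shift -4.05 kb and the share difference -0.382 points. After quantile normalization the bin value was -0.000780 and the border shift -0.268 kb, and 1 border slope passed as shallower in deletion cells (-0.85, limma, adjusted p = 0.0205). With each profile's own median as the border level the shift was -6.59 kb.

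The replicate number as a block called 70 of 2182 transition bins (39 higher, 31 lower, limma, 785 of all 30659). It called 1 of 87 runs, the border beside Klf4 (2 of all 381 runs), and 0 border positions and slopes. The deviations of same-numbered profiles correlated at 0.663 over transition bins and 0.689 over border positions, but with 2 pairs this does not show that the numbers are pairs. Median centring with the replicate block, chosen after seeing the data, called 63 of 2182 transition bins, or 2.89%, against 2.33% of all 30659 bins. It also called 6 of 65 border positions, and all borders are members. Among the 6 were those beside Klf4 (-104 kb, limma, adjusted p = 0.00104), beside Matn1 (-99.9 kb, 0.00104), in Clvs1 (-80.4 kb, 0.0100) and 1 of the 2 in Hivep3 (66.0 kb, 0.0471). The cause of these changes was not tested. Unknown read depth limits what can be said of any single bin.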
